A study of Mus musculus with 16 samples.

Results

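Metabolite-sensing G protein-coupled receptors let immune cells read the small molecules that the diet, the host and the gut bacteria leave in the mucosa. Each receptor spans the membrane and passes the presence of its ligand to G proteins, which raise or lower cyclic AMP or move calcium. In the gut wall they are known for steering the movement, cytokine output and survival of phagocytes and lymphocytes. The 8 receptors described here were picked by name: *Ffar2* for short-chain fatty acids such as the acetate that bifidobacteria secrete, *Hcar2* for niacin, butyrate and ketone bodies, *Gpr35*, for which kynurenic acid is a proposed ligand, the proton sensor *Gpr65*, its relative *Gpr132* for lysolipids and oxidised fatty acids, *Gpr183* for oxysterols, *Sucnr1* for succinate and *Gpbar1* for bile acids. All 8 had a row of their own among the 35647 gene identifiers in the table.

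The mice were germ-free animals of wild-type genotype that were given a single bacterium for 5 weeks and held in gnotobiotic cages from then on. The bacterium was either *Bifidobacterium breve* Δchat, a mutant strain that lacks acetylcholine production, or its wild-type (WT) counterpart, with 4 mice per strain. Immune cells of the lamina propria, the tissue under the epithelium, were enriched from ileum and colon on a Percoll gradient of 40% and 80%, and their polyadenylated RNA was sequenced. This gave 4 groups of 4 libraries: ileum Δchat, ileum WT, colon Δchat and colon WT. All mice carried *B. breve*, and mice left germ-free were not analysed here; the age and sex of the mice are not given in the sources used here. The p-values below measure the spread among the libraries of these few mice. Where tissues are compared, the ileum and colon libraries taken as one mouse entered the main fit as independent. A fit with the mouse as a replicate block is an alternative. The library totals ran from 15.9 M to 23.6 M estimated counts.

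The preparations were mixed, and their makeup differed between libraries. All 10 listed macrophage markers (*Csf1r*, *C1qa*, *Adgre1* and others) had counts in every group, and their summed level ran from 835 to 3659 CPM in ileum Δchat, 1209 to 1714 CPM in ileum WT, 390.5 to 806 CPM in colon Δchat and 301 to 416 CPM in colon WT (CPM, counts scaled to one common library size after TMM scaling over the 16 libraries). Ileum Δchat replicate 2 held the 3659 CPM, with the other 3 libraries of its group between 835 and 1674 CPM. The 8 B cell markers summed to between 351 and 1863 CPM in ileum Δchat, 537 and 1148 CPM in ileum WT, 1447 and 2626 CPM in colon Δchat and 2188 and 4018 CPM in colon WT. The 10 epithelial markers reached 3369 CPM in colon Δchat replicate 3 and at most 417 CPM in any other library. Of the 8 eosinophil markers, *Ear6* had no count in any group and *Epx* none in colon. In RNA from mixed cells, fewer cells of a type and less RNA per cell cannot be told apart.

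The receptors covered a wide range of levels. Per kilobase of annotated exon, the order in ileum WT was *Gpr132* (159 ± 12.8 CPM per kb; mean ± SD, n = 4), *Gpr65* (49.0 ± 5.06), *Hcar2* (23.2 ± 3.52), *Gpr183* (16.4 ± 2.25), *Ffar2* (4.60 ± 0.508), *Gpr35* (1.60 ± 0.371), *Sucnr1* (0.124 ± 0.0648) and *Gpbar1* (0.0720 ± 0.0575). Of these neighbours, *Hcar2* and *Gpr183* overlapped between libraries, as did *Sucnr1* and *Gpbar1*. In colon WT, *Gpr183* followed *Gpr65* (25.8 ± 1.61 CPM per kb) at 22.1 ± 3.55 CPM per kb and overlapped it, and *Hcar2* (6.81 ± 0.958) came after both. *Ffar2* stood ahead of *Gpr35* in both ileum groups and behind it in both colon groups, where it had 0.805 ± 0.258 CPM per kb in Δchat and 0.762 ± 0.152 in WT. *Sucnr1* and *Gpbar1* were too low for the fit in any comparison, so 6 of the 8 receptors were tested.

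**Figure D1:**
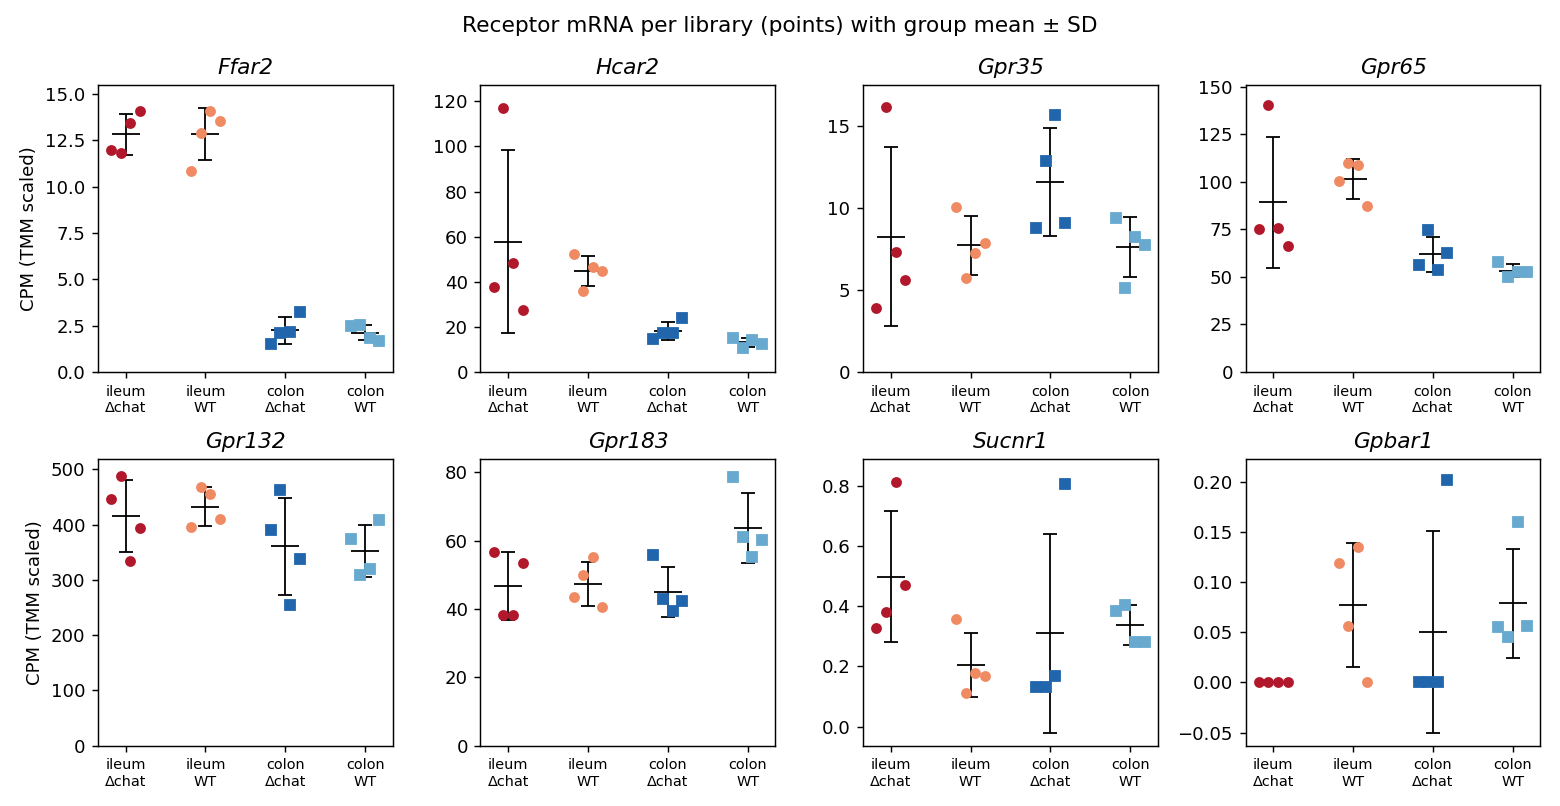
CPM of the 8 receptors in each of the 16 libraries (points), with the mean and SD of each group of 4; each panel has its own linear axis. *Ffar2* lies above 10 CPM in every ileum library and below 4 CPM in every colon library, and ileum Δchat replicate 2 is the highest point for *Hcar2*, *Gpr35*, *Gpr65* and *Gpr132*.

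The stretches upstream of 3 receptors are shown because they stand for the patterns below: *Ffar2* was called higher in ileum with either strain, *Gpr65* with WT *B. breve* but not with Δchat, and *Gpr183* with neither. They are the 250 bases before the annotated start that lies farthest upstream in the RefSeq table for GRCm38.p6, which lists 7 of the 8 receptors and has no entry for *Hcar2*. Capitals mark matches, on either strand, to 4 motifs: GAGGAA (an ETS factor core), TGTGGT (RUNX), TGANTCA (AP-1) and AGGTCA (a nuclear receptor site). *Ffar2* is on the minus strand at chr7:30823776-30824025, *Gpr65* on the plus strand at chr12:98268385-98268634 and *Gpr183* on the minus strand at chr14:121965194-121965443, in GRCm38 coordinates.
Ffar2: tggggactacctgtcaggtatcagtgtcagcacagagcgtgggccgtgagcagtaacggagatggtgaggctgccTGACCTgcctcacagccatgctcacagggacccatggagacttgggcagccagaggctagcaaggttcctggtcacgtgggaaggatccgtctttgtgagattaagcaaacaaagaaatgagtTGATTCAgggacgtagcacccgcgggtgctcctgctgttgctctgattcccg
Gpr65: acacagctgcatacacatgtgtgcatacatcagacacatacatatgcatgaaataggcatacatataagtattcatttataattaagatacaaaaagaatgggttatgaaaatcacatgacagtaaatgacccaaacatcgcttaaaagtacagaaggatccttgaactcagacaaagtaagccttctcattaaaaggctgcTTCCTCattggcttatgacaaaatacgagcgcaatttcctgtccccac
Gpr183: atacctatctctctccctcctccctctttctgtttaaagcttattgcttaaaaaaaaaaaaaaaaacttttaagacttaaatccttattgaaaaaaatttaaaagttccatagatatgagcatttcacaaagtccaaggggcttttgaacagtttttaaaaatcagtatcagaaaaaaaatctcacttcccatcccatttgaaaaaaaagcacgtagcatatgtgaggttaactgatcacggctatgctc

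The *Ffar2* stretch held TGANTCA once and AGGTCA once, on the minus strand of the printed sequence. The *Gpr65* stretch held GAGGAA once, also on its minus strand, 43 to 48 bases before the start, and the *Gpr183* stretch held none of the 4. Among 32851 upstream stretches of the same length, 23.3% held GAGGAA, 14% TGTGGT, 6.75% TGANTCA and 14% AGGTCA. The table gives *Ffar2* 4 starts, and the gene counts do not say which of them was in use.

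*Ffar2* was about 6-fold higher in ileum than in colon and *Hcar2* about 3-fold higher, with either bacterial strain. *Gpr65* was 1.90-fold higher in ileum with WT *B. breve*. Of the 6 receptors tested, 2 were called in Δchat mice, where 13.3% of all genes were, and 3 in WT mice, where 28.8% were (edgeR quasi-likelihood test, 2-sided, Benjamini-Hochberg adjusted p under 0.05). All of these calls were higher in ileum, the direction of 8.31% of all genes in Δchat mice and 13.7% in WT mice, where 5.03% and 15.1% were called lower. The median log2 fold change of the 6 was 0.37 in Δchat mice and 0.61 in WT mice, against -0.02 and -0.04 for all genes.

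**Figure D2:**
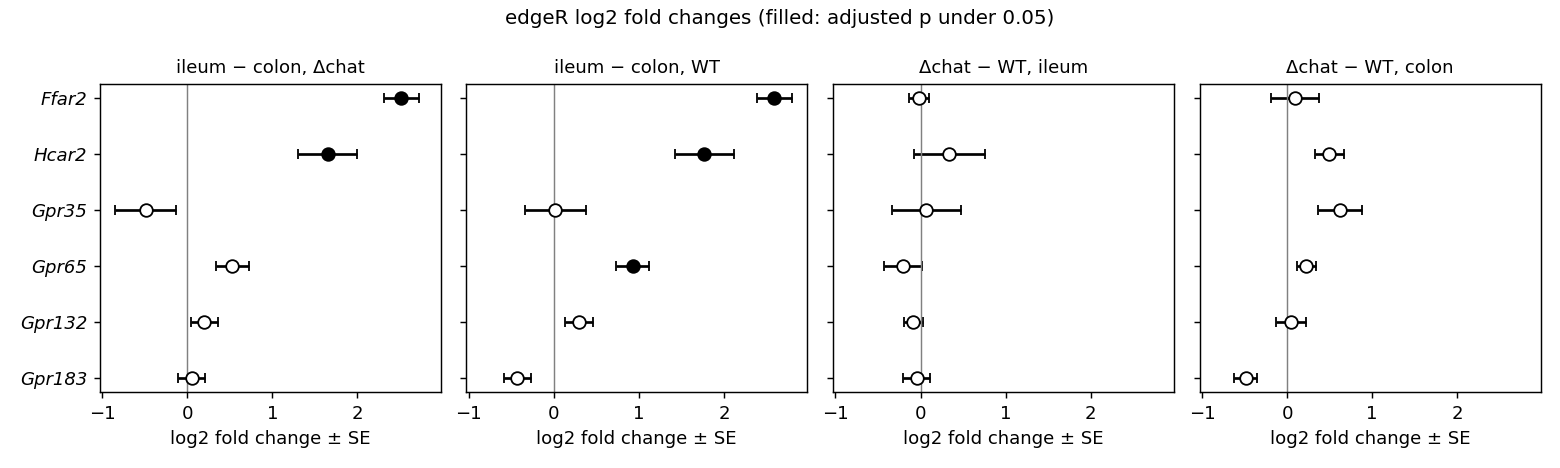
Log2 fold changes with standard errors from edgeR for the 6 receptors tested, for ileum minus colon in each strain and Δchat minus WT in each tissue; filled points have an adjusted p under 0.05. The 5 filled points are *Ffar2* and *Hcar2* in both tissue comparisons and *Gpr65* with WT *B. breve*; no strain comparison has one.

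*Ffar2* (ENSMUSG00000051314, chromosome 7) had 11.97, 11.8, 13.4 and 14.1 CPM in ileum Δchat, against 1.5001, 2.08, 2.17 and 3.23 CPM in colon Δchat (replicates 1 to 4). In WT mice it had 10.8, 12.9, 14.1 and 13.5 CPM in ileum, against 2.46, 2.52, 1.84 and 1.69 CPM in colon. The tissues did not overlap in either strain, a state shared by 15.5% of genes in Δchat mice and 34.9% in WT mice. The log2 fold change of ileum over colon was 2.52 ± 0.20 (SE) in Δchat mice (edgeR adjusted p = 1.3e-05) and 2.59 ± 0.21 in WT mice (edgeR adjusted p = 6.5e-06). Libraries of one strain and number were taken as one mouse, and within mice the ratio ran from 4.37 to 7.98 with Δchat and from 4.40 to 7.99 with WT. The group sums behind these values were 1042 counts in ileum Δchat, 969 in ileum WT, 197 in colon Δchat and 177 in colon WT.

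*Ffar2* spread little within ileum, from 10.8 to 14.1 CPM over the 8 libraries. Ileum Δchat replicate 2, the library with the most macrophage marker RNA, had the lowest *Ffar2* value of its group, 11.8 CPM, close to 11.97 CPM in replicate 1. Per 100 CPM of the macrophage list, *Ffar2* had between 0.323 and 1.69 CPM in ileum Δchat and between 0.666 and 1.07 in ileum WT. In colon this ratio ran from 0.258 to 0.516 in Δchat and from 0.500 to 0.818 in WT. It overlapped between ileum and colon in both strains, and was chosen after the values had been seen. The 8 markers of ILC3 and Th17 cells, lymphocytes of type 3 immunity, summed to 123 to 172 CPM in ileum Δchat, 128 to 141 CPM in ileum WT, 107 to 130 CPM in colon Δchat and 109 to 147 CPM in colon WT. The 8 T cell markers summed to 233 to 373 CPM in ileum Δchat, 272 to 338 CPM in ileum WT, 87.6 to 210 CPM in colon Δchat and 115 to 167 CPM in colon WT. Per 100 CPM of the T cell list, *Ffar2* overlapped between the tissues in Δchat mice (3.17 to 5.75 in ileum, 0.919 to 3.63 in colon). In WT mice it did not (3.82 to 5.05 in ileum, 1.38 to 1.83 in colon). These ratios too were chosen after the values had been seen. The part of these cell types in the *Ffar2* difference was not tested.

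*Hcar2* (ENSMUSG00000045502, chromosome 5) had 37.9, 117, 48.5 and 27.7 CPM in ileum Δchat, against 14.7, 17.4, 17.4 and 24.04 CPM in colon Δchat. In WT mice it had 52.2, 35.8, 46.5 and 44.7 CPM in ileum, against 15.1, 10.9, 14.1 and 12.5 CPM in colon. The tissues did not overlap in either strain, and the spread was widest in ileum Δchat, where replicate 2 stood far above the rest. The log2 fold change was 1.65 ± 0.34 in Δchat mice (edgeR adjusted p = 0.00647) and 1.77 ± 0.35 in WT mice (edgeR adjusted p = 0.00310). Without ileum Δchat replicate 2 it was 1.06 ± 0.20 in Δchat mice (edgeR adjusted p = 0.00608), and in a fit of the 8 Δchat libraries alone it was 1.64 ± 0.44 and did not pass (edgeR adjusted p = 0.0709). Within mice the ratio of ileum to colon ran from 1.15 to 6.74 with Δchat and from 3.29 to 3.57 with WT.

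The library with the most macrophage marker RNA, ileum Δchat replicate 2, also had the most *Hcar2*. Within colon WT the libraries at the ends went the opposite way, with 10.9 CPM of *Hcar2* at 416 CPM of macrophage markers and 15.1 CPM at 301 CPM. The libraries between them went the same way as the markers, with 14.1 CPM at 367 CPM and 12.5 CPM at 322 CPM. Per 100 CPM of the macrophage list it had 3.21 ± 0.232 CPM in ileum Δchat, 2.91 ± 0.248 in ileum WT, 3.33 ± 0.791 in colon Δchat and 3.84 ± 0.981 in colon WT (mean ± SD, n = 4), a ratio chosen after the values had been seen. These ratios overlapped between ileum and colon in both strains, whereas the *Hcar2* levels did not. The part of the macrophage markers in the *Hcar2* difference was not tested.

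*Gpr65* (ENSMUSG00000021886, chromosome 12) had 75.0, 141, 75.8 and 66.0 CPM in ileum Δchat, against 56.3, 74.7, 53.7 and 62.4 CPM in colon Δchat. In WT mice it had 100.3, 109.7, 108.7 and 87.1 CPM in ileum, against 57.9, 49.9, 52.7 and 52.8 CPM in colon. The tissues did not overlap in WT mice and did in Δchat mice. The log2 fold change was 0.93 ± 0.19 in WT mice (edgeR adjusted p = 0.00394). In Δchat mice it was 0.53 ± 0.19 and did not pass (edgeR adjusted p = 0.0809), passed with the mouse as a replicate block (0.48 ± 0.13, edgeR adjusted p = 0.0436), passed in 3 of 16 alternatives in all, and was 0.23 ± 0.11 without ileum Δchat replicate 2 (edgeR adjusted p = 0.238). Per 100 CPM of the macrophage list, *Gpr65* had 5.77 ± 1.91 CPM in ileum Δchat against 11.1 ± 2.28 in colon Δchat, and 6.76 ± 1.68 in ileum WT against 15.5 ± 3.07 in colon WT, so that this ratio was lower in ileum while the level was higher. The annotation places an exon of an antisense gene model over *Gpr65*, and without a stated strand setting their reads cannot be told apart.

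**Figure D3:**
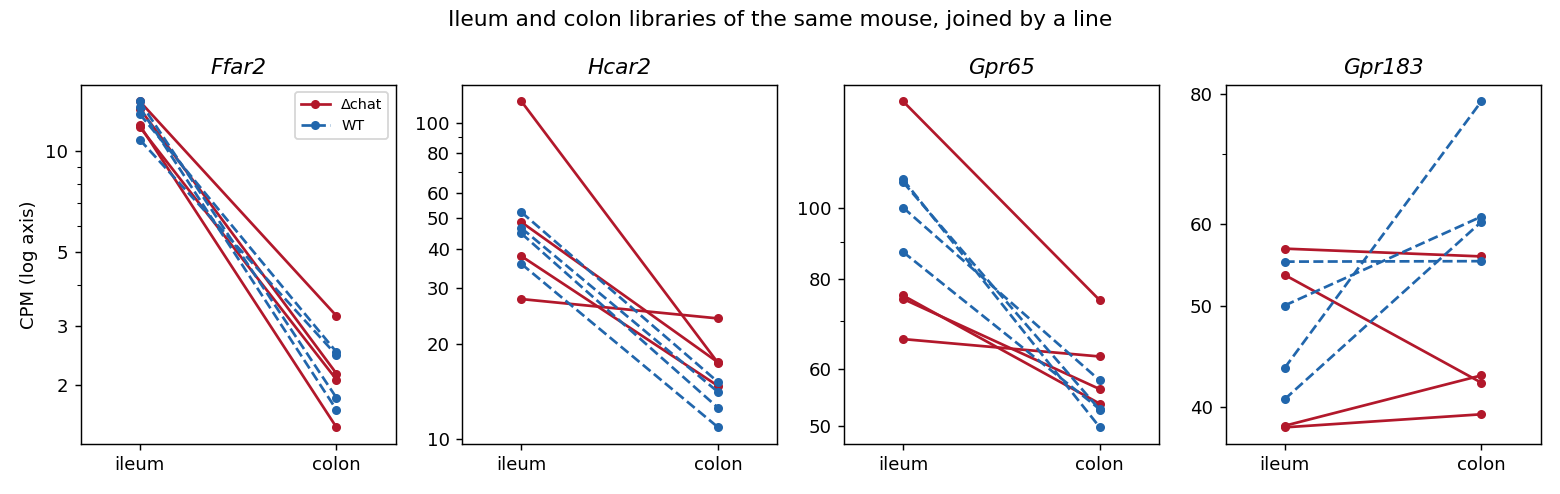
CPM (log axis, each panel with its own range) of *Ffar2*, *Hcar2*, *Gpr65* and *Gpr183* in the ileum and colon libraries taken as the same mouse, 4 mice per strain. *Ffar2*, *Hcar2* and *Gpr65* are higher in ileum in 8 of 8 mice, and *Gpr183* is lower in ileum in each of the 4 WT mice and in 2 of the 4 Δchat mice.

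*Gpr132* (ENSMUSG00000021298, chromosome 12) was the most abundant receptor per kilobase in every group and differed little. It had 446, 488, 335 and 394 CPM in ileum Δchat, against 389.7, 463, 254 and 338 CPM in colon Δchat, and 396, 469, 455 and 411 CPM in ileum WT, against 373, 309, 319.8 and 408 CPM in colon WT. Ileum was higher in 4 of 4 mice of each strain, by ratios of 1.01 to 1.52. The log2 fold changes of 0.20 ± 0.16 in Δchat mice (edgeR adjusted p = 0.432) and 0.30 ± 0.16 in WT mice (edgeR adjusted p = 0.185) did not pass. In WT mice it passed in 2 of 16 alternatives, a fit of the 8 WT libraries alone (0.33, edgeR adjusted p = 0.0478) and limma-voom (0.35, limma-voom adjusted p = 0.0255).

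*Gpr183* (ENSMUSG00000051212, chromosome 14), which guides B cells, dendritic cells and ILC3 towards oxysterols, had its highest mean in colon WT. It had 56.8, 38.4, 38.3 and 53.6 CPM in ileum Δchat, against 55.9, 42.9, 39.4 and 42.2 CPM in colon Δchat. In WT mice it had 43.6, 50.1, 55.2 and 40.7 CPM in ileum, against 78.7, 61.0, 55.3 and 60.3 CPM in colon. All 4 ileum WT libraries lay below the 4 colon WT libraries, the nearest pair just barely. The log2 fold change of ileum over colon in WT mice was -0.43 ± 0.16 and did not pass (edgeR adjusted p = 0.0578), and passed with the mouse as a replicate block (-0.42, edgeR adjusted p = 0.0495) and in 5 of 16 alternatives in all. Without colon WT replicate 1 it was -0.29 (edgeR adjusted p = 0.224). In Δchat mice it was 0.05 ± 0.16 (edgeR adjusted p = 0.862).

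No receptor was called between the strains. In colon the smallest unadjusted p was that of *Gpr183*, with a log2 fold change of Δchat over WT of -0.49 ± 0.14 (edgeR adjusted p = 0.313), and its groups overlapped by a single pair of libraries. *Hcar2* averaged 18.4 CPM in colon Δchat and 13.1 CPM in colon WT (0.50 ± 0.17, edgeR adjusted p = 0.328), and *Gpr35*, at 8.78, 12.8, 15.7 and 9.07 CPM in colon Δchat and 9.42, 5.12, 8.27 and 7.73 CPM in colon WT, had 0.62 ± 0.26 (edgeR adjusted p = 0.35). The highest *Gpr35* value, 15.7 CPM, belonged to colon Δchat replicate 3, the library with 3369 CPM of epithelial markers, whose part was not tested. *Gpr65* had 0.22 ± 0.11, *Ffar2* 0.09 ± 0.28 and *Gpr132* 0.04 ± 0.17. Of the 6 tested, 0 were called by edgeR, as by DESeq2 and limma-voom, and 3 had an unadjusted p under 0.05, as did 13.3% of all genes. The call rate of all genes was 0.00682% in colon, and a count of 0 of 6 lies at that background.

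Values of B cell, plasma cell and macrophage markers stood beside the colon values. The B cell list summed to between 1447 and 2626 CPM in colon Δchat and between 2188 and 4018 CPM in colon WT, with counts for 8 of 8 markers in both. Per 100 CPM of that list, *Gpr183* had 6.66 ± 4.03 CPM in ileum Δchat, 6.61 ± 1.51 in ileum WT, 2.23 ± 0.442 in colon Δchat and 2.22 ± 0.319 in colon WT. The macrophage list summed to between 390.5 and 806 CPM in colon Δchat and between 301 and 416 CPM in colon WT, and *Hcar2* per 100 CPM of it overlapped between the strains. The 7 plasma cell markers summed to between 3464 and 4727 CPM in colon Δchat and between 6517 and 12305 CPM in colon WT. These sums did not overlap between the strains. The part of these 3 marker lists in the colon values was not tested.

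**Figure D4:**
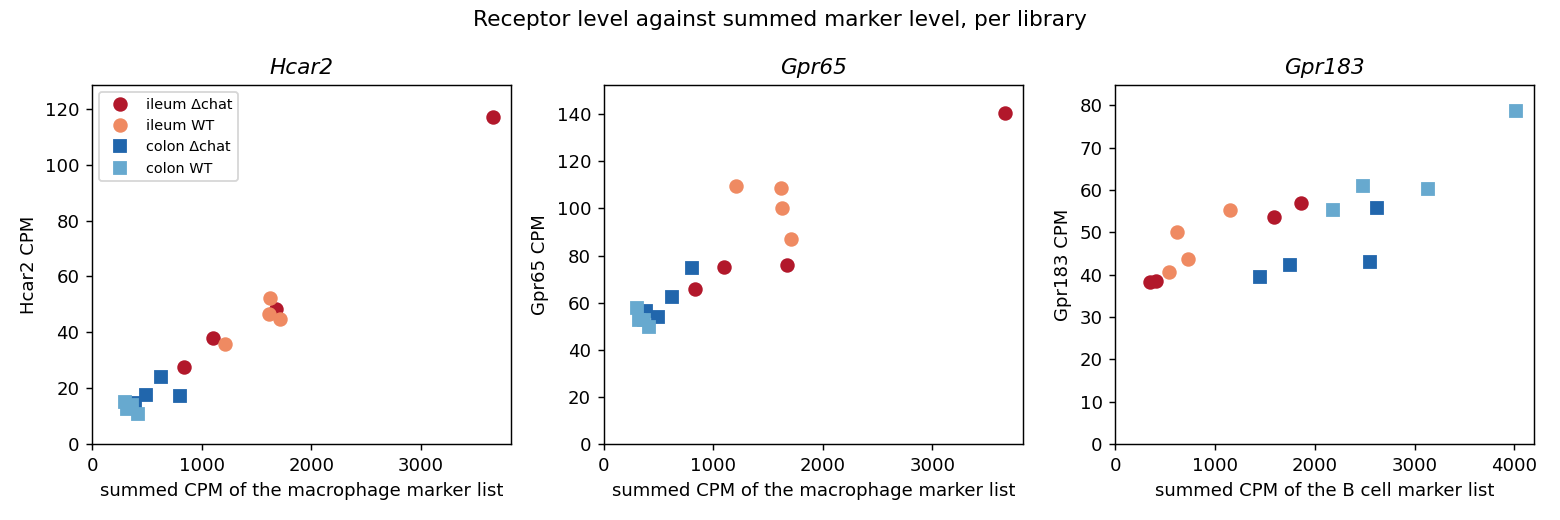
CPM of *Hcar2* and *Gpr65* against the summed CPM of the macrophage marker list, and of *Gpr183* against that of the B cell marker list, 1 point per library. Ileum Δchat replicate 2, at 3659 CPM of macrophage markers, is the highest point for *Hcar2* (117 CPM) and *Gpr65* (141 CPM), and colon WT replicate 1, at 4018 CPM of B cell markers, is the highest for *Gpr183* (78.7 CPM).

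In ileum the 6 tested receptors overlapped between the strains, and non-overlap was seen for 7.13% of all genes. *Ffar2* averaged 12.8 ± 1.11 CPM in ileum Δchat and 12.8 ± 1.42 CPM in ileum WT (SD, n = 4 each), a log2 fold change of -0.02 ± 0.12 (edgeR adjusted p = 0.961). *Hcar2* had 0.34 ± 0.42 (edgeR adjusted p = 0.799), which turned to -0.25 without ileum Δchat replicate 2. *Gpr35* had 3.92, 16.2, 7.33 and 5.61 CPM in ileum Δchat and 10.1, 5.73, 7.27 and 7.84 CPM in ileum WT (0.07 ± 0.41, edgeR adjusted p = 0.965), and this turned to -0.46 without the same library. *Gpr65* had -0.21 ± 0.22, *Gpr132* -0.08 ± 0.12 and *Gpr183* -0.04 ± 0.16. Of the 6, 0 were called by edgeR, DESeq2 or limma-voom and 0 had an unadjusted p under 0.05, beside a call rate of 0.0207% for all genes in edgeR and an unadjusted share of 10.9%.

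The strain effect was not shown to differ between the tissues for any receptor. The largest difference of log2 fold changes, ileum minus colon, was -0.51 ± 0.51 for *Gpr35* (edgeR adjusted p = 0.742), and *Gpr183* had the smallest unadjusted p, at 0.48 ± 0.23 (edgeR adjusted p = 0.637). For the tissue difference of *Gpr35* itself, ileum over colon was -0.49 ± 0.36 in Δchat mice (edgeR adjusted p = 0.388) and 0.02 ± 0.36 in WT mice (edgeR adjusted p = 0.976). The Δchat value was -1.03 ± 0.29 without ileum Δchat replicate 2 and then passed (edgeR adjusted p = 0.0392). Of the 6 receptors, 0 were called for the difference by edgeR, DESeq2 or limma-voom and 0 had an unadjusted p under 0.05, beside a call rate of 0.0592% for all genes in edgeR and an unadjusted share of 7.72%.

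*Sucnr1* (ENSMUSG00000027762, chromosome 3) had between 2 and 19 counts in a library. Its sums over 4 libraries were 42 counts in ileum Δchat, 15 in ileum WT, 26 in colon Δchat and 28 in colon WT. In CPM it had 0.327, 0.381, 0.814 and 0.471 in ileum Δchat and 0.357, 0.112, 0.179 and 0.167 in ileum WT, which overlapped. A 2-sided exact permutation test of these ileum values gave p = 0.0571 (Benjamini-Hochberg 0.166 over 32 such tests, of which the smallest possible p is 0.0286). *Gpbar1* (ENSMUSG00000064272, chromosome 1) had 0 counts in the 4 ileum Δchat libraries, 6 in ileum WT, 4 in colon Δchat and 7 in colon WT. The 0 counts allow a level of up to 0.0367 CPM over that group. At this depth no difference in *Gpbar1* was detectable.

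The genes whose pattern over the 16 libraries was most like each receptor, among 10992 genes with at least 5 CPM on average, differed by receptor. For *Hcar2* they were *Trpm2*, a calcium channel, *Lair1*, an inhibitory collagen receptor, and *Igsf6*, with Pearson correlations of log2 CPM of 0.978, 0.976 and 0.976, and of 0.923, 0.910 and 0.887 for the deviations from the group means. For *Gpr65* they were *Lilrb4a*, an inhibitory receptor of myeloid cells, *Ebi3*, a cytokine subunit, and *Cd300ld* (0.972, 0.964 and 0.963). For *Ffar2* they were *Gzma*, a granzyme of cytotoxic lymphocytes, the interferon-induced chemokine *Cxcl10* and the complement gene *C6* (0.967, 0.951 and 0.951), with values of only 0.153, 0.174 and -0.477 for the deviations from the group means. *Gpr183* was most like *Ssrp1*, a histone chaperone subunit, the B cell coactivator *Pou2af1* and *Pfdn4* (0.913, 0.910 and 0.910), *Gpr132* most like *Kdm6b*, a histone demethylase, *Fnbp1* and the kinase *Jak2* (0.926, 0.922 and 0.915), and *Gpr35* most like the chemokine *Ccl9*, *Rnf141* and *Vps72* (0.864, 0.770 and 0.765). The libraries fall into 2 tissues and share these cell mixtures, so the values describe the pattern and carry no test.

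Of 27 listed receptors of other metabolites, 20 were tested between the tissues. In Δchat mice 3 were called higher in ileum and 0 lower, and in WT mice 7 higher and 5 lower, with median log2 fold changes of 0.39 in Δchat mice and 0.21 in WT mice. The call rate of all genes was 13.3% in Δchat mice and 28.8% in WT mice, which holds for the lists that follow too. *Gpr31b*, through which intestinal phagocytes sense lactate and pyruvate, had 7.39, 20.1, 12.3 and 5.79 CPM in ileum Δchat, against 3.66, 3.10, 3.005 and 1.92 CPM in colon Δchat. In WT mice it had 12.03, 12.5, 13.9 and 14.9 CPM in ileum, against 0.821, 1.80, 1.48 and 1.69 CPM in colon. The tissues did not overlap, and its log2 fold change of ileum over colon was 1.96 ± 0.34 in Δchat mice (edgeR adjusted p = 0.00222) and 3.19 ± 0.36 in WT mice (edgeR adjusted p = 0.000105). *Gpr55*, a lysolipid receptor, had 1.22 ± 0.25 in Δchat mice and 1.88 ± 0.25 in WT mice, and the adenosine receptor *Adora2a* had 0.76 ± 0.18 in Δchat mice and 1.21 ± 0.18 in WT mice, and both passed in each strain. In WT mice the cannabinoid receptor *Cnr2* (-1.95 ± 0.47), the lysophosphatidylserine receptor *Gpr174* (-1.22 ± 0.32) and *Gpr18* (-1.12 ± 0.30) were lower in ileum and passed. The B cell list was also lower in ileum WT than in colon WT, and its part in these values was not tested.

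The proton sensor *Gpr4* was higher in ileum WT than in colon WT too. It averaged 23.4 ± 3.47 CPM in ileum WT and 12.2 ± 2.42 CPM in colon WT (log2 fold change 0.94 ± 0.20, edgeR adjusted p = 0.00410). In Δchat mice *Gpr4* had 0.59 ± 0.20 and did not pass (edgeR adjusted p = 0.0615). *Ffar1*, a receptor of long-chain fatty acids named because of its values, was lower in ileum WT, the opposite of *Ffar2*. It averaged 4.82 ± 2.34 CPM in ileum WT and 19.9 ± 7.96 CPM in colon WT (-2.04 ± 0.63, edgeR adjusted p = 0.0261). In Δchat mice it had -0.59 ± 0.60 and did not pass (edgeR adjusted p = 0.548). In ileum Δchat *Ffar1* had 13.9, 3.595, 1.46 and 16.3 CPM. The B cell list summed to 1863, 413, 351 and 1588 CPM there. The highest *Ffar1* value in colon WT, 31.5 CPM, belonged to replicate 1, the library with 4018 CPM of B cell markers. Replicates 2 and 4 of colon WT went the opposite way, with 18.2 CPM at 2483 CPM and 16.9 CPM at 3132 CPM. The part of the B cell list in the *Ffar1* values was not tested. Among the other fatty acid receptors, *Gpr84* (0.05 ± 0.51 in WT mice) and *Ffar4* (-0.05 ± 0.26 in WT mice and -0.75 ± 0.25 in Δchat mice) did not pass, and *Ffar3*, the second receptor of short-chain fatty acids, was at or below 0.383 CPM in every library and was not tested.

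Receptors of lipid mediators and nucleotides numbered 32, of which 29 were tested between the tissues. In Δchat mice 4 were called higher in ileum and 1 lower, and in WT mice 12 higher and 3 lower, with median log2 fold changes of -0.0018 in Δchat mice and 0.47 in WT mice. The 5 of 29 called in Δchat mice lie near the 13.3% of all genes. The leukotriene receptors *Cysltr1* and *Cysltr2* passed in both strains, with log2 fold changes of 1.35 ± 0.19 and 1.21 ± 0.16 in Δchat mice and 1.28 ± 0.19 and 1.23 ± 0.16 in WT mice, and *Ltb4r1* passed in WT mice (1.25 ± 0.22). In Δchat mice *P2ry13*, a receptor of ADP (1.67 ± 0.28), and the formyl peptide receptor *Fpr2* (2.97 ± 0.67) were called too, and *P2ry1* was lower (-1.71 ± 0.37). In WT mice *Ptger1* (-1.07 ± 0.17), *P2ry1* (-1.21 ± 0.37) and *Lpar2* (-0.82 ± 0.27) were lower.

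Of 22 genes that make, break or carry the ligands, 21 were tested between the tissues, with median log2 fold changes of -0.05 in Δchat mice and 0.10 in WT mice. In WT mice 5 were called higher in ileum and 0 lower, namely the lactate exporter *Slc16a3* (0.79 ± 0.18), *Acod1*, which makes itaconate (1.13 ± 0.35), *Cyp7b1* (0.74 ± 0.24), lactate dehydrogenase *Ldha* (0.27 ± 0.09) and *Ido1*, which starts the kynurenine pathway (0.94 ± 0.32). In Δchat mice 1 was called, the dicarboxylate carrier *Slc13a3*, lower in ileum (-2.10 ± 0.65). Counted in either direction, neither number exceeded the share of all genes, 28.8% in WT mice and 13.3% in Δchat mice. By direction, 13.7% of all genes were called higher in WT mice, and the 5 of 21 exceeded that share. The 1 of 21 called lower in Δchat mice did not exceed the 5.03% of all genes called lower there. The enzymes of the *Gpr183* ligand are *Ch25h* and *Cyp7b1*, which make it, and *Hsd3b7*, which breaks it down. *Cyp7b1* averaged 6.67 ± 1.41 CPM in ileum WT and 3.97 ± 0.741 CPM in colon WT (edgeR adjusted p = 0.0325), while *Ch25h* (-0.03 ± 0.25) and *Hsd3b7* (0.40 ± 0.21) did not pass. Of 37 genes of G protein signalling, 2 were called higher and 2 lower in ileum in Δchat mice, with a median of 0.03. In WT mice 8 were called higher and 1 lower, with a median of 0.09. Counted in either direction, these calls too did not exceed the shares of all genes. By direction, the 8 of 37 higher in WT mice exceeded the 13.7% of all genes, and the 1 lower stayed below 15.1%. In Δchat mice the 2 higher stayed below 8.31%, and the 2 lower lay just above 5.03%. *Rgs1*, which ends G protein signals in lymphocytes, had a log2 fold change of 1.48 ± 0.28 in Δchat mice and 2.29 ± 0.29 in WT mice, the arrestin *Arrb2* 0.86 ± 0.17 and 0.99 ± 0.17, and the cyclase *Adcy3* -0.73 ± 0.12 and -0.38 ± 0.12, and all 3 passed in both strains. *Rgs2* (0.87 ± 0.18) passed in WT mice and *Gnai3* (-0.20 ± 0.06) in Δchat mice.

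Between the strains, edgeR called 0 genes of these 4 lists in colon, in ileum or for the difference between them. DESeq2 called 4 of 103 in colon, 5 of 104 in ileum and 1 of 107 for the difference, where it called 2.1%, 2.59% and 0.382% of all genes. For limma-voom these were 0, 3 and 0 genes, beside 0.00682%, 1.13% and 0.079% of all genes. In colon 6 of 19 other metabolite receptors, 8 of 26 lipid and nucleotide receptors, 1 of 21 ligand genes and 6 of 37 signalling genes had an unadjusted p under 0.05 in edgeR, and in ileum 3 of 20, 5 of 27, 4 of 20 and 6 of 37. For the difference these were 1 of 20, 7 of 29, 3 of 21 and 1 of 37. Of all genes, 13.3% had such a p in colon, 10.9% in ileum and 7.72% for the difference. *Ffar4*, a receptor of long-chain fatty acids, had 2.69, 2.22, 4.05 and 2.32 CPM in colon Δchat, against 1.15, 1.39, 1.398 and 1.24 CPM in colon WT. The groups did not overlap, as for 7.21% of all genes, and the log2 fold change was 1.14 ± 0.27 and missed the threshold (edgeR adjusted p = 0.260), while DESeq2 called it. Its highest value belonged to replicate 3, the library with 3369 CPM of epithelial markers. The 2 most abundant genes of each list had an adjusted p above the threshold, namely *Gnas* (0.07 ± 0.08 in colon and 0.0030 ± 0.08 in ileum), *Gnai2* (0.03 ± 0.08 and 0.01 ± 0.08), *S1pr1* (0.11 ± 0.12 and -0.03 ± 0.13), *Ptger4* (0.15 ± 0.07 and -0.25 ± 0.13), *P2ry10* (-0.29 ± 0.18 and -0.23 ± 0.16), *Gpr171* (-0.35 ± 0.16 and -0.12 ± 0.17), *Ldha* (0.22 ± 0.12 and -0.05 ± 0.08) and *Abca1* (-0.20 ± 0.20 and -0.03 ± 0.10).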

How the data were processed

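Unscaled estimated counts for each gene made up the deposited table. Per the submitters' processing notes, cutadapt 5.0, Salmon 1.4.0 and GRCm39 were used; the annotation and the strand setting are not given in the sources used here. The estimated counts were rounded, and 35105 of 35647 identifiers had a symbol. Counts were fitted in R 4.3.3 with edgeR 4.0.16 (filterByExpr, TMM, robust quasi-likelihood, 2-sided tests, Benjamini-Hochberg over all genes tested), with 8 libraries for a strain comparison and 16 for the tissue comparisons and their difference; the fits were tested on simulated data. CPM shown are scaled over 16 libraries. DESeq2 1.42.0 and limma 3.58.1 gave alternatives. Exon lengths and overlaps came from GENCODE M21 (GRCm38). Colon and ileum libraries of one strain and number were taken as one mouse, from their library names and the stated 4 mice per strain. Deviations of such pairs from their group means correlated by -0.18 to 0.27. Libraries of one tissue and number from different strains, which are different mice, correlated by -0.27 to 0.335, so these values do not show the pairing. The receptors and lists were chosen with earlier results of these data known. All 8 receptors are named; from the lists, called genes (up to 6, or 3 in each direction) or the 2 most abundant, and a few genes named whatever their values, of which 1 is not reported here. *Hcar1* and *Ffar1* were named after their values were seen.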

Additional observations from a re-analysis of the deposited data

Results flagged for a closer look

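In 31 groups of 4 libraries examined for a value that stands far from the other 3, 4 were found. Chance gives about 1 in 20 for normally distributed values. That rate does not hold for the few counts of *Sucnr1* and *Gpbar1*, so the number found is not set against it. *Gpr65* had 141 CPM in ileum Δchat replicate 2, the library with 3659 CPM of macrophage markers, against 66.0 to 75.8 CPM in the other 3. *Sucnr1* had 0.806 CPM in colon Δchat replicate 4, from 16 counts. *Gpbar1* had 0.202 CPM in the same library, from 4 counts, and 0.160 CPM in colon WT replicate 3, also from 4 counts.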

How the results depend on the processing

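The calls of *Ffar2* in both strains and of *Hcar2* and *Gpr65* in WT mice held under all 16 alternatives of each, with log2 fold changes of 2.36 to 2.73 and 2.51 to 2.70 for *Ffar2*, 1.70 to 1.90 for *Hcar2* and 0.91 to 1.03 for *Gpr65*. The number of receptors called between the tissues ran from 2 to 3 in Δchat mice and from 3 to 4 in WT mice with a library left out, and was 1 and 5 with 8 libraries of one strain alone and 5 in WT mice with limma-voom. No receptor was called between the strains, or for the difference, under any alternative. Genes called in colon numbered 1, against 308 with DESeq2, 10 in a fit of 16 libraries, 0 with a replicate block and 0 to 3 with a library left out. In ileum they numbered 3, against 375 with DESeq2, 164 with limma-voom, 42 in a fit of 16 libraries, 5 with no filter, 0 with RLE factors, a stricter filter or a replicate block, and 0 to 247 with a library left out. Between the tissues they were 2028 in Δchat mice, against 768 with 8 libraries and 1315 to 2177 with a library left out, and 4380 in WT mice, against 2606 to 4160. For the difference they were 9, against 58 with DESeq2, 3 with a replicate block and 0 to 35 with a library left out. Some strain effects turned sign with limma-voom. In colon *Ffar2* turned to -0.087. In ileum *Ffar2* turned to 0.018, *Hcar2* from 0.34 to -0.31, *Gpr35* to -0.43 and *Gpr183* to 0.086. The difference for *Ffar2* turned to 0.14. With a replicate block, *Gpr35* in ileum turned to -0.10. With a library left out, values ran from -0.14 to 0.23 for *Ffar2* and -0.10 to 0.17 for *Gpr132* in colon, and in ileum from -0.094 to 0.027 for *Ffar2*, -0.25 to 0.57 for *Hcar2*, -0.46 to 0.30 for *Gpr35* and -0.14 to 0.044 for *Gpr183*. They ran from -0.039 to 0.17 for *Gpr183* between the tissues in Δchat mice, from -0.12 to 0.18 for *Gpr35* in WT mice, and for the difference from -0.25 to 0.12 for *Ffar2*, -0.73 to 0.12 for *Hcar2* and -0.25 to 0.028 for *Gpr132*. The cause of these changes was not tested. The replicate numbers do not pair mice of different strains by the labels. Depth left *Sucnr1* and *Gpbar1* untested.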

Other observations

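*Hcar1*, the lactate receptor next in kind to *Hcar2*, averaged more with Δchat *B. breve* in both tissues without passing in edgeR in either, and is named because of its values. It had 27.3, 29.1, 39.6 and 29.2 CPM in ileum Δchat, against 19.9, 18.3, 19.6 and 19.5 CPM in ileum WT, with no overlap, as for 7.13% of all genes (log2 fold change 0.68 ± 0.13, edgeR adjusted p = 0.139), and DESeq2 and limma-voom called it there. In colon it had 23.9, 13.3, 16.3 and 28.4 CPM in Δchat and 11.8, 12.4, 16.7 and 10.04 CPM in WT (0.69 ± 0.25, edgeR adjusted p = 0.334). Unlike *Hcar2*, it was not highest in ileum Δchat replicate 2, where it had 29.1 CPM.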
